A study of Malus domestica with 9 samples.

Results

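Gene expression in the peel of bagged apples (Malus domestica) was compared between 6 h of light after unbagging and 0 h. The comparison rests on 3 libraries at each time, described by the submitters as biological replicates, out of 9 libraries in the series, the others being from 24 h. All groups are peel of unbagged fruit and differ in the time of light alone as far as the labels say. No cultivar, fruit age, light source or strength is given in the sources used here, and no fruit that stayed in the bag was sampled at 6 h, so light, bag removal and time of day cannot be told apart. Genes were included when their mean level over the 6 libraries was at least 1 FPKM (mapped fragments scaled by transcript length in kilobases and by the authors' denominator per library in M, mega). This held for 25406 of the 46558 listed genes (54.6%), while 11143 genes had a lower mean above 0 and 10009 were listed at 0 in all 6 libraries. The 5 included genes nearest to the limit had means of 1.00046 to 1.00127 FPKM, and the 5 nearest below it had 0.999281 to 0.999842 FPKM.

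Plants sense light through photoreceptors such as the phytochromes, the cryptochromes and the UV-B receptor UVR8. In darkness the COP1 ubiquitin ligase marks light-promoting transcription factors such as HY5 for degradation, and in light these factors accumulate and switch on large sets of genes. In apple peel the best known output is red colour: a MYB transcription factor activates the enzymes of anthocyanin synthesis, and bagged fruit turns red quickly once it is unbagged. The genes in these data carry locus identifiers alone. None of the 46558 identifiers occurred in the RefSeq gene table at hand (51804 genes, 0 matched), so none of the factors and enzymes just named could be located, no role or sequence is given for any gene, and the labelled tissue could not be checked against peel markers. The account is therefore of how many genes changed, by how much, at which levels and in which neighbourhoods, with 4 genes followed by identifier.

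The libraries held 15331227 to 18179325 reads in genes, as recovered from the steps of the FPKM values. On the log2(FPKM + 1) scale, the correlation across genes was r = 0.988 to 0.991 within a time and r = 0.842 to 0.856 between the times, where genes are not independent replicates. It is not stated in the labels if the libraries came from separate fruit or trees, so p-values cover the spread among these libraries, which may be technical.

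After 6 h of light 2436 genes were higher and 1591 were lower than at 0 h. A gene was called when the adjusted p of the limma test over all 25406 genes was under 0.05 and the log2 difference was at least 1. Called genes made up 15.9% of those tested, with 9.59% higher and 6.26% lower. In bulk peel, fewer cells of a type and less RNA per cell cannot be told apart, and each FPKM is relative to the other transcripts of its library. The median gene that rose stood at 3.94 FPKM at 0 h and 18.0 FPKM at 6 h, and the median gene that fell at 14.1 and 4.42 FPKM, against 8.21 and 8.67 FPKM over all tested genes. The 3 libraries of 6 h lay wholly above those of 0 h in 2431 of the genes that rose, and in 35.9% of all tested genes. They lay wholly below in 1588 of the genes that fell, and in 32.9% of all tested genes. The calls were made on the same libraries, so the lack of overlap in called genes follows largely from the calls.

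The large changes were mostly rises. Changes of up to 4-fold on the log2(FPKM + 1) scale were found in 1658 genes that rose and 1386 that fell. Changes of 4-fold to 16-fold were found in 645 and 202 genes, and changes beyond 16-fold in 133 and 3. More than 4-fold rises thus made up 3.06% of the tested genes and such falls 0.807%. The counts beyond 4-fold were 1195 higher and 445 lower with a pseudocount of 0.1 in place of 1, 365 and 69 with a pseudocount of 5, and 709 and 261 after quantile normalization. Of all called genes, 60.5% were higher as reported and 52.7% after quantile normalization.

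**Figure D1:**
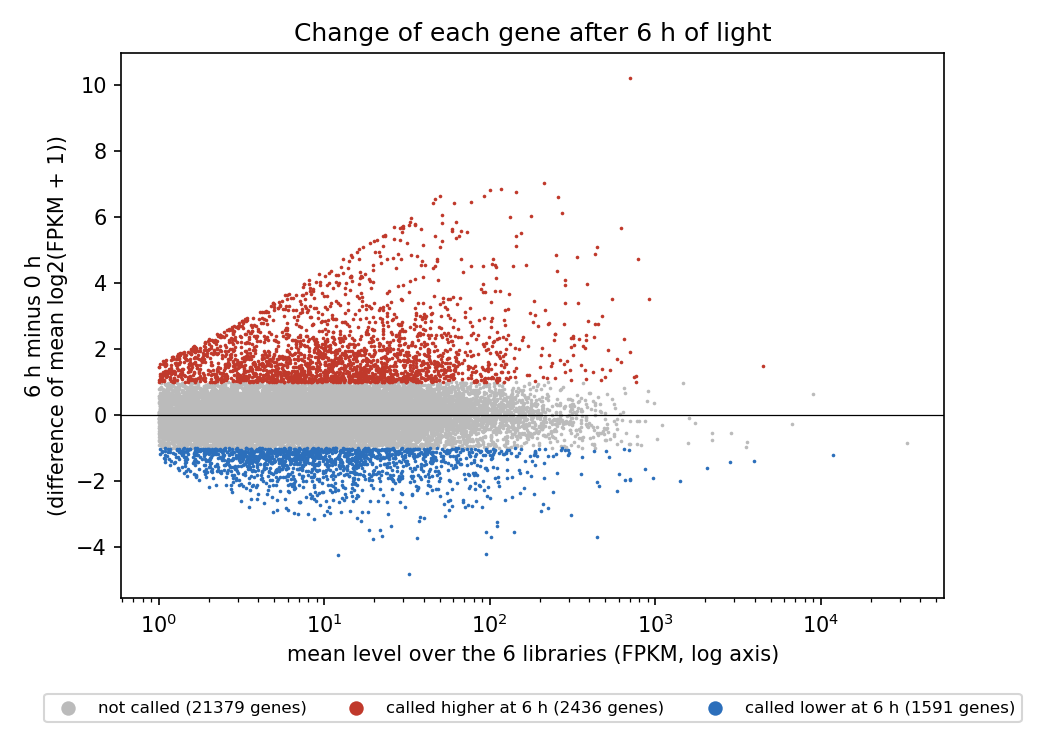
Difference between 6 h and 0 h (difference of mean log2(FPKM + 1), vertical axis) against the mean level over the 6 libraries (FPKM, log axis) for each of the 25406 tested genes. The 2436 genes called higher reach much further from 0 than the 1591 called lower. At low mean levels the pseudocount and the mean itself limit how large a difference can be.

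Below the limit for a call, small changes were common and went both ways. A further 11945 genes (47.0%) had an adjusted p under 0.05 by limma but a log2 difference under 1, with a median size of 0.49 log2 units. Of these 5943 were higher and 6002 lower. By adjusted p alone, 62.9% of the tested genes passed, 33% as higher and 29.9% as lower. The 95% interval of the difference lay within 1 log2 unit either side of 0 in 19052 of the 21379 genes that were not called (89.1%). A change of 2-fold in FPKM + 1 lies outside those intervals. A 2-fold change in FPKM itself can lie inside them in low genes, where the pseudocount shrinks it. For example, MD00G1096900 stood at 0.615 FPKM at 0 h and 1.48 FPKM at 6 h, with an interval of 0.27 to 0.97. In the other 2327 genes the interval reached beyond this limit. It lay within 0.5 log2 units either side of 0 in 9132 genes (35.9% of those tested). The intervals are per gene and not adjusted for their number.

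With the pseudocount of 1, the share of genes called was larger at higher levels, up to 1000 FPKM, as counted and without a test. Among 8254 genes with a mean of 1 to 5 FPKM, 8.19% were higher and 5.77% lower. The shares were 8.49% and 5.90% at 5 to 20 FPKM (10876 genes), 12.9% and 7.13% at 20 to 100 FPKM (5260 genes), while at 100 to 1000 FPKM 159 of 996 genes were higher and 93 lower. Only 20 genes exceeded 1000 FPKM, of which 1 was called higher and 5 lower. The low end of this order depended on the pseudocount, which shrinks the differences of low genes. With 0.1 the shares at 1 to 5 FPKM were 12.3% and 11.9%, and with limma-voom on the recovered reads 12.8% and 12.5%. At 5 to 20 FPKM both shares were smaller, at 9.52% and 6.89% with 0.1 and 9.60% and 6.96% with limma-voom. The share of lower calls at 1 to 5 FPKM was also above that at 100 to 1000 FPKM, which was 9.44% in both of these fits.

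The share called also differed with transcript length, again as counted and without a test. The transcript length that the FPKM values contain had a median of 1531 bases over the tested genes, 1456 bases in the genes that rose and 1325 bases in those that fell. Under 500 bases 11.2% of 1548 genes were higher and 10.7% lower. At 4000 bases or more 5.03% of 974 genes were higher and 2.87% lower. By limma-voom on the recovered reads the shares were 12.8% and 15.7% for the short genes and 6.37% and 4.83% for the long ones. The short genes also had the larger standard errors, with a median of 0.169 log2 units against 0.0951 in the long genes. The part of this in the calls was not tested.

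A small set of genes was near silent at 0 h and clearly expressed at 6 h. In 26 genes the 0 h libraries held no more than 3 reads in sum while the 6 h mean was at least 10 FPKM, and 15 of them had no read at 0 h at all. Their 6 h means ran from 10.6 to 99.5 FPKM, with a median of 30.3 FPKM, and rested on 206 to 6974 reads per gene over the 3 libraries. The coefficient of variation among the 6 h libraries had a median of 25.6% in these genes and reached 46.5%. At 24 h, a time that did not enter the choice, 14 of them had a mean under 1 FPKM, 9 stood between 1 and 10 FPKM and 3 at 10 FPKM or more. No gene met the same limits in the opposite direction. With a wider limit, 140 genes went from a mean under 1 FPKM to at least 10 FPKM, 7 of them to at least 100 FPKM, whereas 6 genes went from at least 10 FPKM to under 1 FPKM. These genes were chosen for their difference, so the counts are a description.

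The composition of the transcript pool moved well beyond the spread between replicates. The share of summed FPKM that would have to change hands to turn one library into another was 3.94% to 5.20% between libraries of 0 h and 4.17% to 5.79% between libraries of 6 h. Between the times it was 23.5% to 25.5% in the 9 pairs. Without the 3 called genes that gained most FPKM and the 3 that lost most, a setting chosen after seeing the data, the pairs of different times lay at 22.9% to 24.6%. The pool was also spread over more genes at 6 h. At 0 h 50% of the summed FPKM was held by the top 1063, 944 and 943 genes of the 3 libraries, and at 6 h by the top 1334, 1213 and 1236 genes. The groups did not overlap, and the exact two-sided permutation test gave p = 0.1, the smallest value that 3 against 3 libraries allow.

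The share of the pool held by the genes called higher was 4.89% ± 0.0849 (SD, n = 3) before light and 20.1% ± 0.394 (SD, n = 3) after 6 h. That of the genes called lower was 15.5% ± 0.246 (SD, n = 3) before and 5.36% ± 0.146 (SD, n = 3) after. These shares describe genes that were chosen by the same difference. The gain was spread over more genes than the loss. The top 125 of the 2436 genes called higher made up 50% of the FPKM that these genes gained. Of the 1591 genes called lower, the top 36 made up 50% of the FPKM lost. The top 10 genes accounted for 13.8% of the gain and for 35.2% of the loss. A large part of the loss was 1 gene, MD12G1141500, with a change of -9353 FPKM where 66909 FPKM were lost in all. Its call was not kept under every setting, as given below.

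**Figure D2:**
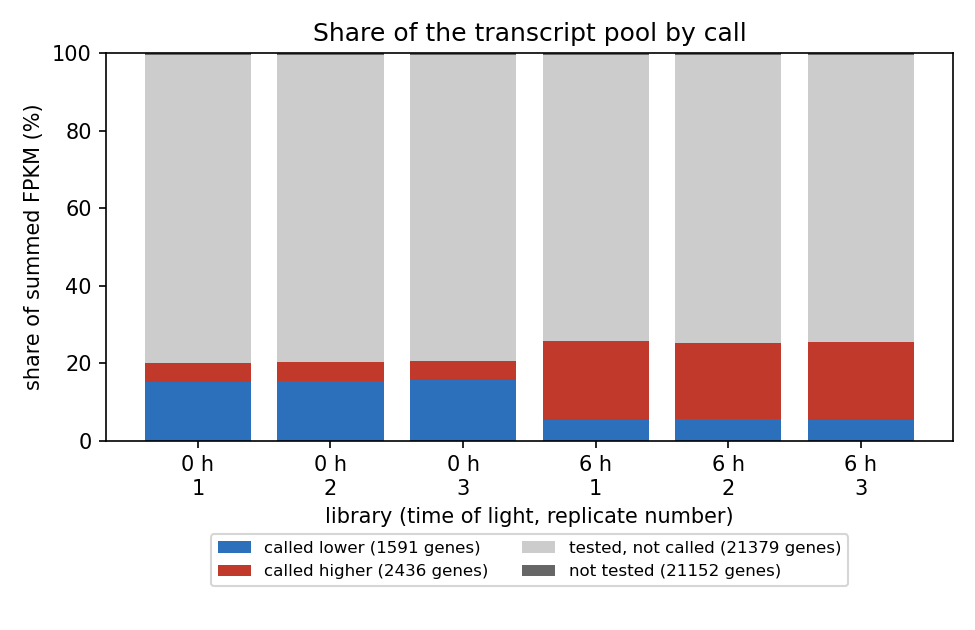
Share of the summed FPKM (%) in each of the 6 libraries held by the genes called lower (1591), called higher (2436), tested but not called (21379) and not tested (21152). The 3 libraries of a time look alike, and the genes called higher go from 4.89% on average at 0 h to 20.1% at 6 h.

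The 4 genes followed by identifier were those with the largest gain and the largest loss in mean FPKM among the called genes whose libraries did not overlap. A call and a lack of overlap were thus conditions of the choice. The p-values below come from the same 6 libraries that chose the genes, and describe them only. MD13G1161400 gained most. It stood at 2387, 1908 and 2788 FPKM in the 0 h libraries and at 6482, 6336 and 7029 FPKM in the 6 h libraries. All 6 h libraries lay above all 0 h libraries, as the choice required. The mean went from 2361 ± 440 FPKM (SD, n = 3) to 6616 ± 365 FPKM (SD, n = 3), and the log2 difference was 1.50 (SE 0.155, limma adjusted p = 2.82e-05). Its share of the summed FPKM was 0.356% before light and 0.988% at 6 h.

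MD13G1160500, the gene with the next largest gain, was at 144.1, 105.3 and 202.4 FPKM at 0 h and at 1792, 1570 and 1676 FPKM at 6 h. The libraries of the times were far apart. The mean at 6 h was 11.2 times that at 0 h, and the log2 difference was 3.52 (SE 0.194, limma adjusted p = 4.7e-07).

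MD12G1141500 lost most. It was at 14758, 16344 and 18412 FPKM at 0 h and at 6267, 7981 and 7206 FPKM at 6 h, without overlap. Its share of the summed FPKM went from 2.49% ± 0.205 to 1.07% ± 0.112 (SD, n = 3 each). The log2 difference was -1.21 (SE 0.181, limma adjusted p = 0.000325), with a 95% interval of -1.62 to -0.80. This call was lost when the 24 h libraries shared the estimate of the spread (limma adjusted p = 0.103), and under quantile normalization, where the difference was -0.91. With the third 24 h library left out of that shared fit, the limma adjusted p was 9.14e-05.

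MD15G1098800 had the next largest loss. It was at 5513, 5785 and 5692 FPKM at 0 h and at 1794, 2659 and 2122 FPKM at 6 h. The 0 h libraries lay close together and the 6 h libraries were all far below them. The log2 difference was -1.39 (SE 0.152, limma adjusted p = 4.24e-05).

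In the first and second 24 h libraries the level of each of these genes lay between its levels at 0 h and 6 h. MD13G1161400 was at 3328, 3226 and 7368 FPKM and MD13G1160500 at 365.4, 382.8 and 1015 FPKM. MD12G1141500 was at 11463, 10235 and 17746 FPKM and MD15G1098800 at 3422, 3929 and 7677 FPKM. The third 24 h library was the highest of its group in all 4 genes. It is also the library with the highest summed FPKM of the 9. In the comparison of 24 h with 6 h, the log2 difference of MD13G1161400 was -0.62 with all libraries (limma adjusted p = 0.222) and -1.01 without the third (limma adjusted p = 0.000295). That of MD12G1141500 was 0.84 (limma adjusted p = 0.246) and 0.61 (limma adjusted p = 0.0172) in the same order.

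**Figure D3:**
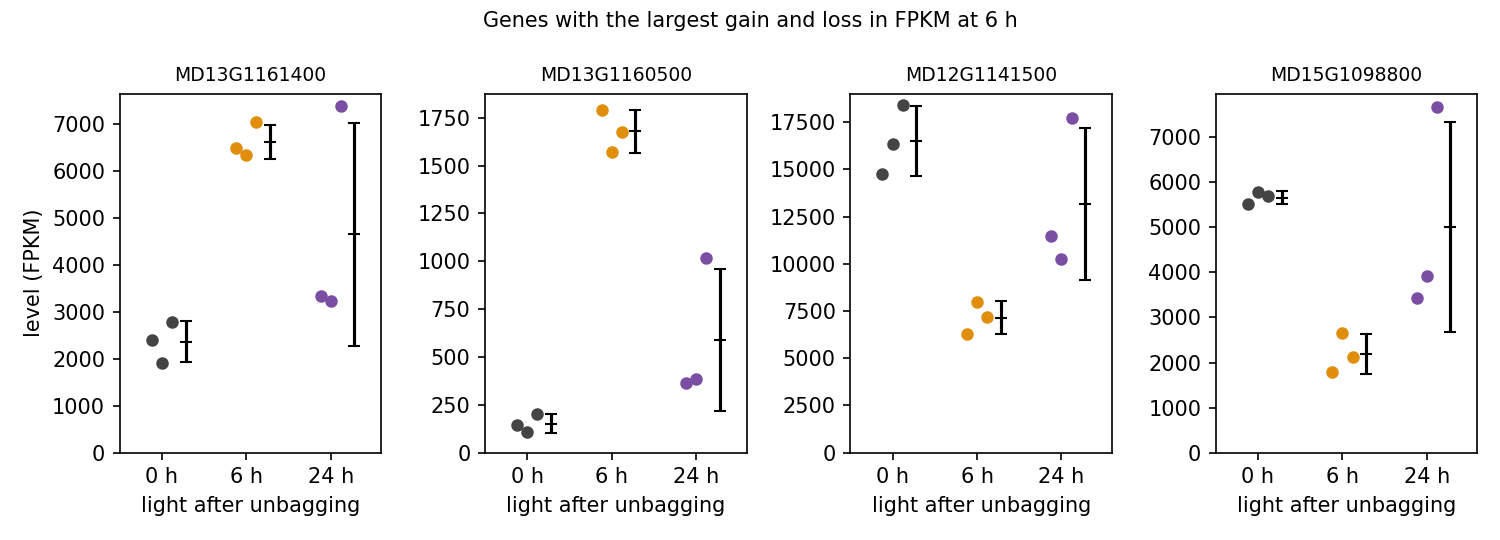
Levels (FPKM, vertical axes from 0) of the 2 genes with the largest gain and the 2 with the largest loss between 0 h and 6 h, 1 point per library, with the mean ± SD of each time as bars. The genes were chosen so that the 6 h libraries do not overlap the 0 h libraries. At 24 h the third library lies above the others.

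The 2 genes with the largest gain were taken as the ends of a stretch of 10 consecutively numbered genes, 9 of which rose. In the naming scheme of these identifiers the digits after MD give the chromosome and the last digits the order along it, which was not checked against a map. From MD13G1160500 to MD13G1161400 the table lists 10 identifiers on chromosome 13. Of these, 9 passed the filter on low values, and all 9 were called higher at 6 h, against 9.59% of all tested genes. Their log2 differences ran from 1.50 to 6.87. The 2 ends were called higher by choice, since they set the stretch. Part of the genes passed the filter only through their 6 h level, and the stretch was singled out after its values were seen. The 9 calls are therefore a description, and the 9.59% beside them is no test.

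The genes of the stretch differed widely in level. The genes at places 1, 4 and 10 held most of the expression, with means of 1679, 1524 and 6616 FPKM at 6 h. The gene at place 4 was at 67.9, 38.9 and 67.8 FPKM at 0 h and at 1523, 1417 and 1631 FPKM at 6 h. The gene at place 8 had the largest log2 difference, from 0.622, 0.329 and 2.29 FPKM to 331.8, 186.5 and 180.2 FPKM. The gene at place 6 was listed at 0 in all 0 h libraries and reached 2.79, 1.73 and 1.99 FPKM. The gene at place 9, which did not pass the filter, was at 0.171 FPKM or less in all 6 libraries. Summed over the stretch, the level was 2614, 2063 and 3081 FPKM at 0 h, 11280, 10391 and 11334 FPKM at 6 h, and 3814, 3779 and 8758 FPKM at 24 h. How the authors' counting treated reads shared by near-identical neighbours is not given, so the split among these genes is uncertain.

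**Figure D4:**
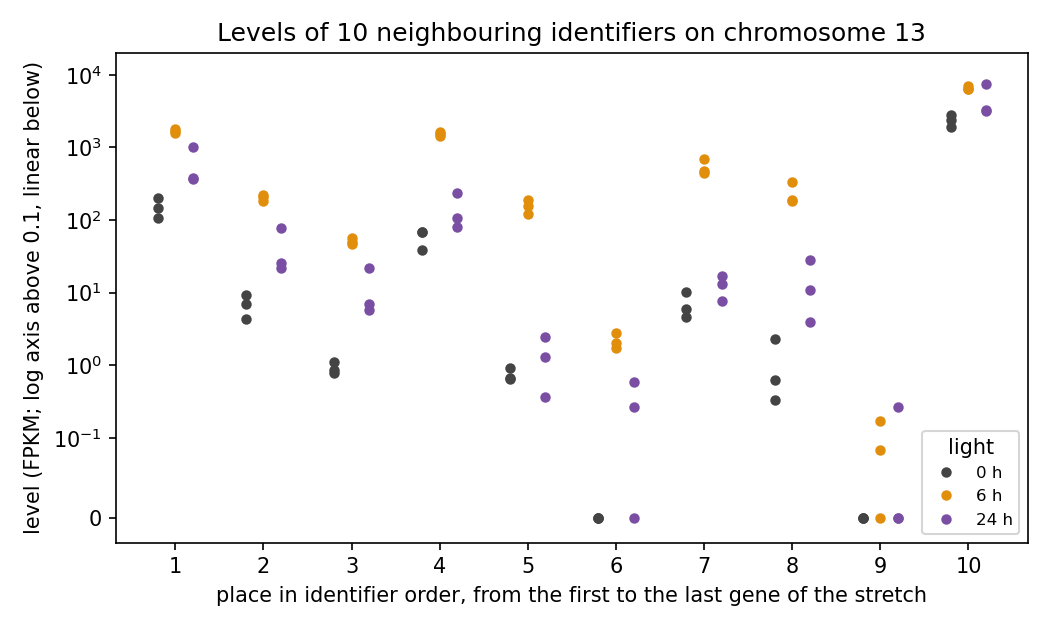
Level (FPKM, log axis above 0.1 and linear below) of the 10 consecutively numbered genes from MD13G1160500 (place 1) to MD13G1161400 (place 10) in each library of 0 h, 6 h and 24 h. In 9 of the 10 places all 6 h points lie above all 0 h points.

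Other stretches of neighbours were called in one direction as well. Runs of tested neighbours that were all called in one direction reached a length of at least 5 in 6 cases among the genes that rose and in 2 among those that fell. Listed identifiers that were not tested are skipped in these runs. The run on chromosome 16 that rose held 5 tested genes among 7 listed identifiers, with log2 differences of 3.26 to 6.82. Their summed level was 54.7, 59.4 and 59.6 FPKM at 0 h and 1647, 1746 and 1805 FPKM at 6 h. As background, chromosomes 13 and 16 of apple are known to descend largely from the same ancestral chromosome. Whether the genes of these runs are related was not tested.

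Chromosome 5 held 3 of the runs that rose. One of 6 genes went from 49.0, 55.2 and 59.2 FPKM in sum at 0 h to 623.4, 565.4 and 592.1 FPKM at 6 h, and stood at 74.9, 84.1 and 114.1 FPKM at 24 h. Another, of 5 genes, went from 3.88, 4.14 and 4.44 FPKM to 355.3, 273.0 and 319.9 FPKM, and its genes had log2 differences of 3.64 to 6.65. The third, also of 5 genes, rose less, with log2 differences of 1.11 to 2.14. In this order the 3 runs spanned 12, 5 and 12 listed identifiers, and those outside the counts of tested genes were not tested.

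A run of 5 genes on chromosome 17 stood at 85.3, 93.1 and 97.3 FPKM in sum at 0 h and at 325.4, 307.7 and 327.3 FPKM at 6 h. In contrast to the runs on chromosomes 13 and 16, its summed level was higher still at 24 h, at 551.2, 550.7 and 489.8 FPKM. Among the genes that fell, a run of 5 on chromosome 16 went from 3147, 3558 and 3332 FPKM to 1064, 938.9 and 1174 FPKM. Nearly all of this sum was 1 gene, whose mean was 3085 of 3345 FPKM at 0 h and 1018 of 1059 FPKM at 6 h. A run of 5 on chromosome 14 went from 112.6, 122.0 and 121.4 FPKM to 26.9, 37.9 and 27.7 FPKM. These runs on chromosomes 17, 16 and 14 spanned 9, 11 and 5 listed identifiers, in that order. All genes in these runs passed the test one by one, and the runs were chosen for that. In the runs that rose on chromosomes 5 and 16, the lowest 0 h mean of a gene was 0 to 0.290 FPKM. Such genes passed the filter only through their 6 h level.

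Over the whole table, direct neighbours shared the direction of their call in a larger share of genes than the background. Of the 2368 genes called higher on numbered chromosomes, 32.0% had a directly neighbouring tested gene that was also called higher, whereas 18.0% of all 24603 tested genes on these chromosomes had such a neighbour. For the 1533 genes called lower the shares were 26.0% and 11.9%. Neighbours of opposite direction made up a smaller share than in the background: 9.50% of the genes called higher had a neighbour called lower, against 11.9% of all, and 14.0% of the genes called lower had a neighbour called higher, against 18.0% of all. A place held by a call of the same direction cannot hold one of the opposite direction. The smaller shares thus follow in part from the larger ones and are not a separate result. At the second place along the chromosome the shares with the same direction were 23.8% and 17.5%, and at the third place 22.3% and 13.7%. At the fifth place they were 19.0% and 10.1% and by then close to the background. No test was made of these shares. The filter on low values enters them, since a gene silent at 0 h is tested only through its 6 h level. Of 933 tested genes under 1 FPKM at 0 h, 578 were called higher, against 9.59% of all. Of 738 under 1 FPKM at 6 h, 225 were called lower, against 6.26% of all. How reads shared by near-identical neighbours were counted is not given, so neighbouring calls may not be separate measurements. The part of both in the shares was not tested.

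**Figure D5:**
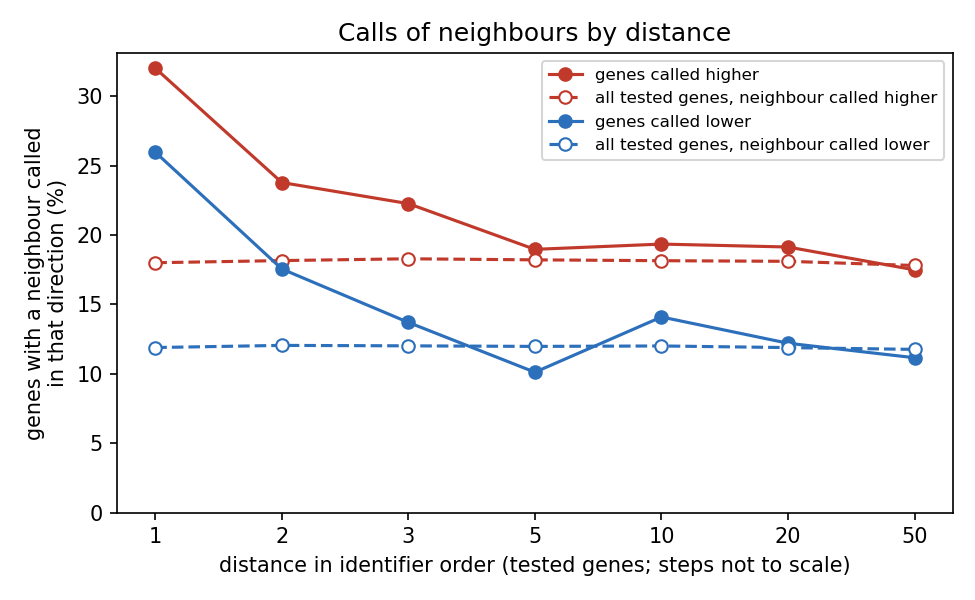
Share of genes (%) that have a tested gene called in the given direction at a distance of 1 to 50 places in identifier order, for genes called in that direction themselves (filled) and for all tested genes (open). The filled lines start at 32.0% and 26.0% for direct neighbours and come down to near the open lines by a distance of 5.

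Most of these neighbours were pairs and short runs. Among the genes called higher, 758 stood in 330 runs of at least 2, of which 19 runs with 87 genes were of at least 4. Among those called lower, 398 stood in 177 runs, of which 7 with 30 genes were of at least 4. The shares also varied between whole chromosomes. The share called higher ran from 8.06% on chromosome 8 (Wilson 95% interval 6.68% to 9.71%) to 11.7% on chromosome 1 (9.99% to 13.7%), and the share called lower from 5.09% on chromosome 4 (3.99% to 6.47%) to 7.38% on chromosome 14 (6.04% to 8.99%). These intervals treat genes as independent, which the clustering of calls goes against, and the chromosomes shown are the extremes.

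The spread among libraries was of like size at both times. Over all tested genes the median within-time SD of log2(FPKM + 1) was 0.110 at 0 h and 0.0987 at 6 h. It was 0.134 and 0.123 in the genes called higher, and 0.121 and 0.150 in those called lower.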

How the data were processed

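The authors deposited FPKM per gene and library. HISAT2 and Cufflinks are named in the submitters' processing notes, while tool versions, genome build, annotation, filters and strandedness are not given there. Per the labels' protocols, Illumina mRNA libraries were made from Trizol-extracted RNA. Whole reads and transcript lengths were recovered from the steps of the FPKM. For each gene a length was searched for that made its values whole reads. One was found for all 37142 genes with a value above 0. That 100% of the values above 0 came within 0.1 of whole reads follows from this search and is no separate check. The reads rebuilt the deposited FPKM to within 6.91e-08. The authors' denominators were not the summed reads, so libraries were compared on the scale as deposited. In the third 24 h library the denominator was 16.2 M against 19.5 M reads in genes. In the first 0 h library it was 18.1 M against 16.5 M.

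Log2(FPKM + 1) of the 6 libraries of 0 h and 6 h was fitted with limma 3.58.1 in R 4.3.3, with an intensity trend, 4 residual degrees of freedom, no replicate block and Benjamini-Hochberg adjustment over 25406 genes. The pseudocount makes differences of low genes smaller. The 24 h against 6 h values come from a fit to all 9 libraries. The rule for named genes, applied since no identifier could be paired with a name, took the 2 called genes with the largest gain and the 2 with the largest loss in mean FPKM among those whose libraries did not overlap. Genes, lists and rules were chosen with earlier results of these data known. Neighbours are the next tested genes in identifier order, without identifiers that begin with MD00. Wilson intervals of shares cover counting error only, and intervals of log2 differences come from limma and the spread among libraries.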

Additional observations from a re-analysis of the deposited data

Results flagged for a closer look

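In 2 of the named genes the change from 0 h was not the same at 6 h as at 24 h, by the limma comparison of 24 h with 6 h over all 9 libraries. In MD13G1160500 the log2 difference between 24 h and 6 h was -1.68 (limma adjusted p = 0.00355), and -2.16 without the third 24 h library (limma adjusted p = 7.14e-06). In MD15G1098800 it was 1.12 (limma adjusted p = 0.0341), and 0.76 without that library (limma adjusted p = 0.00231), which is under the size limit of 1. Both genes were picked as extreme at 6 h in these same libraries, and that choice favours a return.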

How the results depend on the processing

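The 4027 calls (2436 higher, 1591 lower, 60.5% higher) became 2046 (1366 and 680, 66.8%) with a pseudocount of 5 and 15972 (8379 and 7593, 52.5%) by adjusted p alone. The share higher was 56.8% with a pseudocount of 0.1, 58.0% with FPKM divided by their sum, 52.7% after quantile normalization and 56.7% in the limma-voom fit to recovered reads. Calls beyond 4-fold (778 and 205) numbered 1195 and 445 at a pseudocount of 0.1, but 365 and 69 at 5. Genes called as reported and again under another setting had the same direction in every setting run, as shared values make likely. With each library left out in turn there were 3992 to 4101 calls, 2384 to 2478 higher and 1564 to 1661 lower, 58.9% to 61.2% higher, and 780 to 807 rises and 195 to 228 falls beyond 4-fold. With the next listed identifier as neighbour, whether tested or not, 24.1% of the genes called higher and 19.7% of those called lower had one of the same direction, against 11.4% and 7.53% of all tested genes; listed genes that were not tested cannot be called. Replicate numbers did not pair the libraries (r of same-numbered deviations -0.0269, -0.0236 and 0.0306), and with the replicate block 4029 genes were called. Of the named genes, MD13G1161400, MD13G1160500 and MD15G1098800 kept their calls under all alternatives run for them. MD12G1141500 lost its call in the fit to all 9 libraries (limma adjusted p = 0.103) and under quantile normalization (log2 difference -0.91); the cause was not tested. The median standard error was 0.138 log2 units at 1 to 5 FPKM and 0.0915 at 5 to 20 FPKM. In the 20 genes above 1000 FPKM it was 0.128. The part of depth in this was not tested.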
